A study of Mus musculus with 15 samples.

Results

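Antisense transcripts are RNAs copied from the strand opposite to an annotated gene. The assembled antisense transcripts of mouse kidney are described here. They are all transcripts built from the reads (names beginning MSTRG) that carry class code x in the deposited linear transcript table. That code stands for exonic overlap with a gene of the other strand. There were 1372 such transcripts among 129029 listed linear transcripts. Each row names the gene on the opposite strand, here called the opposite gene, and 869 different genes were named. The RNA came from pieces of kidney of male C57BL/6 mice (C57BL/6J in the methods), with no treatment or engineered allele named in the labels, 5 mice aged 3 months (3M), 5 aged 12 months (12M) and 5 aged 24 months (24M). Each library is from a separately numbered mouse, all sample titles begin with 3M whatever the age, and ages were taken from the age label. Levels are FPKM, fragments per kilobase of transcript and per unit of sequencing depth.

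As background, antisense RNAs are a large part of the long non-coding RNA of mammals. Some arise head to head from the promoter of the opposite gene, others run into its 3′ end, and others lie inside it. Known examples act on the gene they face by blocking its promoter, by masking splice sites or by changing the stability of its mRNA, while many have no known function. Kidney tissue is a mixture in which proximal tubule cells give most of the RNA, so an antisense RNA seen here cannot be assigned to a cell type, and fewer cells of a type cannot be told apart from less RNA per cell.

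The tissue had the defining transcripts of kidney. The summed FPKM of the proximal tubule genes Lrp2 and Slc34a1 was 933 to 1374 in the 15 mice, and that of the thick limb genes Umod and Slc12a1 was 592 to 979. Of 4 lymphocyte genes (Cd3e, Cd79a, Igkc, Ighm), 3 were higher at 24M than at 3M by limma with unadjusted p under 0.05, and their summed FPKM ran from 1.04 to 13.4 at 3M, 7.63 to 44.0 at 12M and 4.7 to 23.3 at 24M. Of 3 adrenal cortex genes, 1 was higher, with a summed FPKM of 1.05 to 1.75 at 3M and 1.87 to 3.25 at 24M. Of the collecting duct genes Aqp2 and Atp6v1b1, 1 was lower, with a summed FPKM of 42.5 to 136 at 3M and 29.9 to 58.2 at 24M. By the same limit, 0 genes were higher or lower in the proximal tubule, thick limb, distal convoluted tubule, podocyte, adipocyte, red cell and macrophage lists. Over all genes the shares were 10.4% higher and 3.08% lower. The part of any of these cell types in the antisense results was not tested. The read bases aligned, as implied by the ratio of coverage to FPKM, were 5.03 to 6.13 Gb at 3M, 5.84 to 8.03 Gb at 12M and 6.07 to 7.33 Gb at 24M. Of the 24M mice only mouse 32 lay within the 3M range, and of the 12M mice only mouse 20. The part of this depth in values listed at 0 was not tested. The number of listed transcripts above 0 was 83226 to 86350 at 3M and 87548 to 89423 at 24M, ranges that did not overlap.

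Sequences of 5 transcripts that the results turn on are shown first, because they show how these RNAs sit on the opposite gene. All lie on the mouse genome build GRCm38. MSTRG.30686.1 (chr6:85775021-85779145, minus strand, 4125 bases) lies inside Alms1-ps2, an unprocessed pseudogene related to Alms1, the gene of a centrosome and cilium protein. Its first 146 bases are the reverse complement of part of exon 2 of Alms1-ps2 (chr6:85779000-85779145), and the rest lies over an intron. Exact runs of at least 50 bases of this stretch also occur in Alms1 and Alms1-ps1 transcripts, so reads here can come from several loci. MSTRG.32300.1 (chr7:26246519-26247401, minus strand) begins in the same way on exon 2 of the pseudogene Gm8902 (chr7:26247256-26247401), and MSTRG.27030.1 (chr5:31566955-31568368, plus strand) on exon 2 of the lncRNA gene Gm43660 (chr5:31566955-31567101). MSTRG.25262.1 (chr4:109441371-109444222, minus strand) covers coding exon 18 of Ttc39a (chr4:109444082-109444202), which encodes a tetratricopeptide repeat protein. The fifth, MSTRG.22938.1 (chr3:95879027-95879601, plus strand), begins in coding exon 6 of Ciart (chr3:95879027-95879149), a repressor of the circadian clock, and shares such a run with Gm9176. Each stretch is given in the direction of the antisense RNA, 5′ to 3′, with no capitals.
MSTRG.30686.1 over Alms1-ps2: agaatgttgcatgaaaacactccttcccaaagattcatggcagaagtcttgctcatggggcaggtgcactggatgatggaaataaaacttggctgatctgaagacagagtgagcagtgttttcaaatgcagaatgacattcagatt
MSTRG.32300.1 over Gm8902: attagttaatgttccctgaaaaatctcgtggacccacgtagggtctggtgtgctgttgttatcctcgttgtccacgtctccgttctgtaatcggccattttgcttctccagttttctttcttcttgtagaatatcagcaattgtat
MSTRG.27030.1 over Gm43660: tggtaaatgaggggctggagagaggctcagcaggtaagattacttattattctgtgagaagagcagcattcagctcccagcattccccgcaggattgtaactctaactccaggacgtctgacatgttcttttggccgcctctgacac
MSTRG.25262.1 over Ttc39a: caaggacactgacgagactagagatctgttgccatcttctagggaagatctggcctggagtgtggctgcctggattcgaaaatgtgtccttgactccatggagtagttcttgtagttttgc
MSTRG.22938.1 over Ciart: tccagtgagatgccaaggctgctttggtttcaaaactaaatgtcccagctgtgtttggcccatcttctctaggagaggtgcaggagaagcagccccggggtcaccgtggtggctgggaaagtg

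Quantitative PCR primers exist for MSTRG.30686.1, and the stretch between them is shown because this transcript is among the called ones below. It covers bases 786 to 872 of the transcript (chr6:85778274-85778360), outside the exon of Alms1-ps2. The forward primer and the reverse complement of the reverse primer are in capitals.
MSTRG.30686.1 PCR stretch: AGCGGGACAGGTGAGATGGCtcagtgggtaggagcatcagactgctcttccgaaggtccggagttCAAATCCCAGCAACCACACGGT
Of the 141767 transcripts in GENCODE M21, 0 held the 20-base forward primer, and 8 transcripts of 6 genes held the 22-base reverse primer. Only exact matches in annotated transcripts were counted. The rest of the genome was not searched, so neither primer is shown to be unique.

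MSTRG.6931.1 (chr11:100759888-100761839, plus strand) shows the head-to-head arrangement. It starts 55 bases inside the GENCODE M21 span of Kcnh4, a voltage-gated potassium channel gene on the minus strand, and runs away from it across the promoter. By RefSeq (GRCm38.p6) Kcnh4 starts further inside, and the antisense start lies 110 bases upstream of that start. The 86 bases under the antisense transcript and upstream of both annotated starts (chr11:100759943-100760028) are shown in the direction of Kcnh4, from the RefSeq promoter table, with CpG dinucleotides in capitals.
Kcnh4 promoter: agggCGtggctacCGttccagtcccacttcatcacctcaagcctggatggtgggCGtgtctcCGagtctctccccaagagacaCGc
The 250 bases upstream of the RefSeq start held 20 CpG dinucleotides, against a median of 6 over 27025 RefSeq promoters and a median of 8 over the 65 matched promoters of genes with a head-to-head antisense transcript. TATAAA, searched on both strands, was absent from it and was present in 13% of all promoters and in 12.3% of the 65. CG reads the same on both strands and was counted on 1 strand, and TATAAA holds no CG.

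Most antisense transcripts were unspliced and had a mean level below 1 FPKM. A single exon was listed for 1150 of the 1372 (83.8%), against 98.1% of the 11124 assembled intronic transcripts, 92.1% of the 3978 assembled intergenic transcripts and 7.45% of 3048 listed Ensembl transcripts of genes typed antisense. Of the 222 others, 124 had 2 exons, 60 had 3, 25 had 4 and 13 had 5 to 7. The median length was 1137 bases (200 to 142439), and 702 lay on the plus strand and 670 on the minus strand. Median lengths were 623 bases for the intronic class, 609 for the intergenic class, 786 for Ensembl antisense transcripts and 1443 for all listed transcripts. Single-exon transcripts had a median length of 926 bases and a median level of 0.407 FPKM over the 15 mice. Spliced ones had medians of 3526 bases and 0.952 FPKM.

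The median mean level of the antisense transcripts was 0.45 FPKM, with quartiles of 0.222 and 0.936. It was 0.297 FPKM for the intronic class, 0.277 for the intergenic class, 0.137 for Ensembl antisense transcripts and 0.281 for all listed transcripts. A mean of at least 1 FPKM was reached by 313 antisense transcripts (22.8%), and of at least 5 FPKM by 12. Only 226 were listed above 0 in all 15 mice (16.5%), against 3.41% of the intronic class, 7.04% of the intergenic class, 37% of Ensembl antisense transcripts and 37.6% of all transcripts. The FPKM was spread widely, since the 10 most abundant held 10.4% of the antisense total and the 100 most abundant held 35.4%.

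The positions of these transcripts were checked against GENCODE M21, in which 96.2% of the shared Ensembl transcripts had the listed coordinates. The opposite gene was protein-coding for 797, an lncRNA for 411, a pseudogene for 109, a small RNA gene for 37 and of unclear coding status (TEC) for 16. Inside the opposite gene lay 873, across its 5′ end 236, across its 3′ end 169 and across the whole gene 83. Of the 236 across the 5′ end, 149 started within 1000 bases of the opposite gene's start and ran away from it, at a median distance of 147 bases.

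The label "antisense" fitted part of them only. Of the 1150 single-exon transcripts, 704 lay over an annotated exon of the named gene and 710 over an exon of any gene of the opposite strand, which leaves 440 over no opposite exon. By this annotation the 440 lack the exonic overlap that the class code stands for, and the reason was not tested. Of these 440, 438 lay at the same time in an intron of an annotated gene of their own strand. An own-strand intron was the site of 737 of all 1372 transcripts, 37 overlapped an own-strand exon, 237 lay within 5000 bases downstream of an own-strand gene, and 361 had no own-strand gene in that range upstream. For spliced transcripts the whole span was compared, introns included, so their own exons need not lie over the exon counted. The median level was 0.279 FPKM for the 440 and 0.537 for the 710. Genes with many antisense transcripts were often of this kind. All 19 named for Gm20388, 16 for Gm36975 and 15 for 9630028H03Rik lay over no opposite exon. By contrast, the 20 named for Acmsd, all spliced and of 1 locus, had opposite exon bases within their spans. The library kit in the labels keeps strand, but whether strand was used in counting is not given in the sources used here, so reads of a gene and of its antisense partner may not be told apart.

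The overlap of the 704 with the exons of the named gene had a common length. Their median overlap was 145.5 bases, and the fullest 10-base class was 140 to 149 bases with 87 transcripts, after which the count dropped to 21 for 150 to 159 bases. Overlaps of 100 to 150 bases made up 261 of the 704 (37.1%), against 43 (6.11%) for the next window of the same width, 151 to 201 bases, windows chosen after the values were seen. Reads were 150 bases long. The 146, 146 and 147 bases printed above for Alms1-ps2, Gm8902 and Gm43660 fall in the class of 140 to 149 bases. The lengths of the opposite exons were not compared, and the part of the read length in this common overlap was not tested. Coding sequence was overlapped by 343 of the single-exon transcripts, 5′ UTR by 72 and 3′ UTR by 143.

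**Figure D1:**
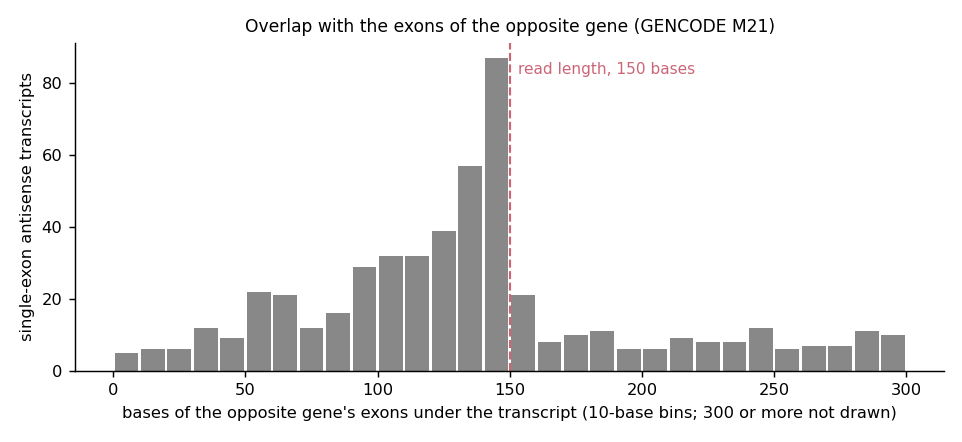
Number of single-exon antisense transcripts (y axis) by bases of the opposite gene's exons that they cover (x axis, 10-base classes, 300 bases or more not drawn), with the read length as a dashed line. The highest bar is 140 to 149 bases with 87 transcripts, and the next class holds 21.

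The most abundant antisense transcript was MSTRG.26211.1 (chr4:146505836-146506116, plus strand, 281 bases), named for the lncRNA gene Gm26573. It lay over no exon of Gm26573 and in an intron of Zfp981, a zinc finger gene of its own strand. Its FPKM was 74.6, 27.2, 38.3, 27.2 and 45.6 in the 3M mice, 24.3, 26.4, 26.1, 32 and 23.1 in the 12M mice and 32.1, 20.1, 24.5, 28.9 and 41.0 in the 24M mice. The ages overlapped, and the log2 change from 3M to 24M was -0.46 ± 0.30 (SE, limma adjusted p = 0.727). MSTRG.8209.1 (chr12:69744530-69746364, minus strand) covered 131 bases of the 3′ UTR of Atp5s, a gene of a mitochondrial ATP synthase factor, downstream of the kinase gene Cdkl1 of its own strand. It ranged from 13.2 to 29.7 FPKM at 3M, 19.4 to 25.5 at 12M and 19.7 to 27.6 at 24M. The gene Atp5s, summed over its Ensembl transcripts without assembled isoforms, had means of 1.54, 0.634 and 0.519 FPKM. The antisense RNA was listed at 25.3 times that summed level over the 15 mice.

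Of the other 4 most abundant, MSTRG.30186.1 (chr6:57366037-57403506, plus strand, 2 exons) spanned the whole of Vmn1r18, a vomeronasal receptor gene, at a mean of 11.1 FPKM. MSTRG.34900.1 (chr8:20398291-20398630, minus strand) was named for the lncRNA gene Gm26804, lay in an intron of 2610005L07Rik of its own strand and had a mean of 9.84 FPKM. MSTRG.6556.1 (chr11:83844836-83848979, minus strand) ran across the 3′ end of the small RNA gene Gm23211, in an intron of Gm12576 of its own strand, at a mean of 7.48 FPKM, and was listed at 0 in 24M mouse 32 and at 4.77 to 12.3 in the other 14 mice. MSTRG.12952.1 (chr15:82364309-82370669, plus strand) ran into 143 bases of the 3′ UTR of Cyp2d22, a cytochrome P450, at 7.12 FPKM. Between 3M and 24M none of these 6 passed the fold limit, and MSTRG.34900.1 had the smallest unadjusted limma p, 0.00878, at a log2 change of 0.47 (adjusted p = 0.428), beside 0.59 for its own-strand gene 2610005L07Rik (unadjusted p = 0.00375).

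Among transcripts with 3 or more exons, the highest was opposite Gc, the gene of the vitamin D binding protein. MSTRG.27885.1 (chr5:89337899-89443268, plus strand, 7 exons) ran across the 3′ end of Gc, with 955 bases of Gc coding sequence within its span. Its FPKM was 5.13, 3.24, 5.93, 4.28 and 4.42 at 3M, 6.26, 7.06, 7.22, 5.55 and 4.74 at 12M, and 6.99, 5.85, 6.09, 6.36 and 6.88 at 24M. Only the lowest 24M mouse lay below the highest 3M mouse, and the log2 change was 0.43 ± 0.14 (SE, limma unadjusted p = 0.0122, adjusted p = 0.47). The gene Gc had 20.7 ± 12.6, 13.3 ± 3.77 and 16.9 ± 4.63 FPKM (SD, n = 5) at 3M, 12M and 24M. The 6 antisense isoforms of this locus summed to 9.9 ± 3.25, 13.7 ± 3.38 and 14.2 ± 2.34 FPKM (SD, n = 5), and 3M and 24M overlapped (log2 difference 0.52, exact 2-sided permutation p = 0.0476).

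The second isoform by level at that locus, MSTRG.27885.7 with 3 exons, was listed at 0 in 1 mouse of each age and at up to 6.53 FPKM in others. MSTRG.14668.1 (chr17:3111885-3115113, minus strand, 4 exons) ran head to head from the 5′ end of Scaf8, an RNA processing gene, at 3.6 FPKM. Its span overlapped an exon of Gm21926 of its own strand. MSTRG.14291.1 (chr16:55419566-55523952, minus strand, 6 exons) spanned the microRNA gene Mir5118 at 2.75 FPKM. MSTRG.14668.1 was 0.42 ± 0.15 higher at 24M on the log2 scale (SE, limma unadjusted p = 0.0209, adjusted p = 0.542), while Scaf8 changed by -0.15 ± 0.25. The Acmsd locus had the most isoforms, 20 of 3 or 4 exons (chr1:127690696-127735406, minus strand). Acmsd is the enzyme that draws tryptophan breakdown away from NAD synthesis, and its own level was 22.9 ± 11.7, 25.2 ± 5.9 and 19.5 ± 3.63 FPKM at the 3 ages (SD, n = 5). The summed antisense level was 9.73 ± 3.85, 8.64 ± 2.54 and 9.53 ± 3.44 FPKM (SD, n = 5), with a log2 difference between 24M and 3M of -0.02 (exact 2-sided permutation p = 0.937).

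Levels of antisense RNA and opposite gene were set side by side for the 1308 transcripts whose gene has listed Ensembl transcripts, with the gene's FPKM summed over them. Assembled isoforms of the gene were left out of this sum, so its level may be understated. The median ratio of antisense to gene was 0.503, with quartiles of 0.138 and 1.37, and the antisense RNA had the higher mean in 418 pairs (32%). For the 778 pairs with a protein-coding gene the median ratio was 0.254, and for the 403 with an lncRNA gene it was 0.986. Across 9 pairs of the most abundant transcripts, Pearson's r between antisense and gene on the log2 scale over the 15 mice was above 0 in 4, and 0 of the 9 had an adjusted permutation p under 0.05. The smallest adjusted p was 0.417, for MSTRG.26211.1 (r = -0.41, unadjusted p = 0.127, Spearman's rho = -0.30 with permutation p = 0.276, n = 15), MSTRG.34900.1 (r = 0.40, p = 0.139, rho = 0.28 with p = 0.319) and MSTRG.27885.7 (r = 0.42, p = 0.125, rho = 0.19 with p = 0.489). Without the 2 mice farthest from the median of the gene, these r were -0.21, 0.08 and 0.26.

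**Figure D2:**
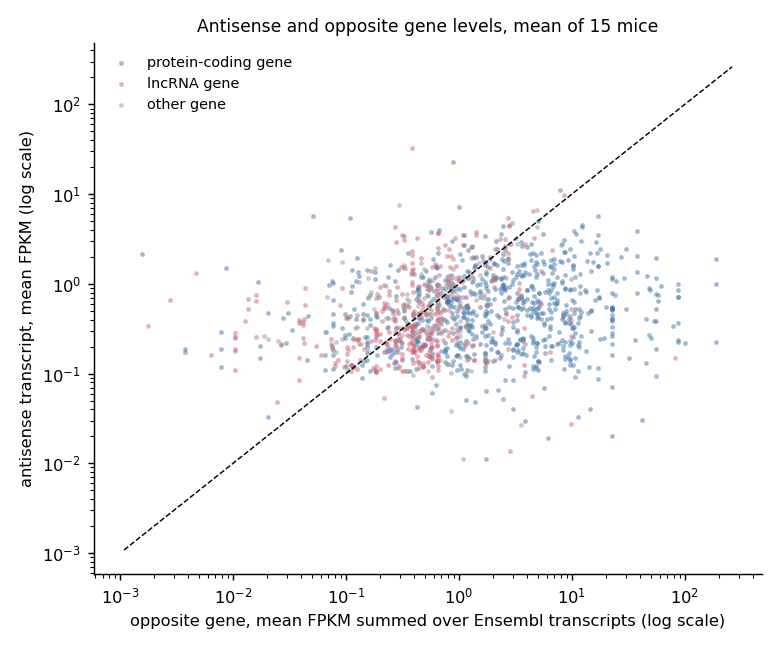
Mean FPKM of the 1308 antisense transcripts (y axis, log scale) against the summed mean FPKM of the opposite gene (x axis, log scale), 1 point per transcript, coloured by the type of the gene, with the line of equality dashed. The median ratio is 0.503, and lncRNA genes lie nearer the line than protein-coding genes.

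Few of the kidney genes of the lists used here had an antisense transcript. It was 2 of 44 proximal tubule genes, 1 of 22 thick limb and distal convoluted tubule genes, 1 of 19 circadian clock genes and 1 of 26 genes from textbook sense-antisense pairs. There were 0 of 18 collecting duct genes, 0 of 25 glomerulus, vessel and stroma genes, 0 of 23 immune cell genes and 0 of 20 senescence and injury genes. Among all 12820 genes with a mean of at least 1 FPKM, 413 (3.22%) had one.

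The proximal tubule pair were Slc6a18 and Slc6a19, transporters of neutral amino acids. MSTRG.10085.1 (chr13:73675194-73679889, plus strand, 2 exons), across the 5′ end of Slc6a18, ranged from 0.568 to 2.59 FPKM at 3M, 1.69 to 2.67 at 12M and 0.783 to 2.36 at 24M, and Slc6a18 itself from 5.21 to 28.1, 1.14 to 19 and 0.57 to 11.1. Slc6a18 fell by 1.45 ± 0.65 on the log2 scale from 3M to 24M (SE, limma unadjusted p = 0.0493, adjusted p = 0.37) and its antisense RNA differed by 0.21 ± 0.25, with a difference between the pair of 1.66 (exact 2-sided permutation p = 0.0794). Kcnj1, the potassium channel ROMK of the thick limb, had 3 isoforms opposite its 5′ end, led by MSTRG.37344.1 (chr9:32368518-32377144, minus strand, 4 exons), whose level was 1.37 FPKM. Sall1, a transcription factor of kidney development, had MSTRG.36098.1 (chr8:89043717-89056312, plus strand, 12596 bases), head to head at 445 bases from its start, with 1.04 to 2.32 FPKM at 3M and 1.49 to 2.42 at 24M.

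The antisense transcript at the clock gene Ciart was not called, but its 3M and 24M values did not overlap. MSTRG.22938.1, which also lies in an intron of C920021L13Rik of its own strand, was listed at 0, 0.599, 0.686, 1.1 and 0.782 FPKM at 3M, 1.38, 0, 0, 0.585 and 1.21 at 12M, and 1.9, 1.21, 1.38, 1.92 and 2.25 at 24M. Each 24M mouse lay above each 3M mouse, and the 12M mice spread over both. The log2 change was 0.77 ± 0.21 (SE, limma unadjusted p = 0.00424, adjusted p = 0.368), below the fold limit, and from 3M to 12M it was -0.06. The own-strand gene C920021L13Rik differed by 0.63 from 3M to 24M (limma unadjusted p = 0.0132), and its part in the antisense value was not tested. Ciart had means of 0.725, 2.28 and 4.3 FPKM and a log2 change of 1.52 ± 0.28 (SE, limma adjusted p = 0.0515). MSTRG.37619.1, opposite the β-secretase gene Bace1, whose human counterpart has a known antisense RNA, was listed at 0 in 7 of the 15 mice, with 0.391 to 1.81 FPKM in the others, and Bace1 was at 7.64 to 9.99 FPKM in all mice.

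The main question of the design was how these RNAs change with age. From 3M to 24M, 13 antisense transcripts were higher and 1 lower among 1334 tested, where a call is an unadjusted limma p under 0.05 with a log2 change of more than 1 on the log2(FPKM + 1) scale, which understates changes of low transcripts. Of all 124719 transcripts tested, 0.465% were called higher and 0.33% lower, against 0.975% and 0.075% of the antisense transcripts. With TPM in place of FPKM the calls were 69 higher (5.17%, against 2.19% of all transcripts) and 28 lower (2.1%, against 1.23%), so that the lower share turned from below to above that of all transcripts. Without the fold limit, 125 were higher (9.37%) and 29 lower (2.17%), where the background is 5.43% higher and 2.47% lower. The median log2 change was 0.07 over the antisense transcripts and 0.01 over all. These medians were 0.12 and 0.04 with TPM, and 0.013 and 0.007 in an F test with a library covariate. A single antisense transcript, MSTRG.20254.1, had an adjusted p under 0.05, so the other calls rest on unadjusted values.

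The calls were then divided by position. Of the 13 higher, 9 were among the 357 tested with no own-strand gene within 5000 bases upstream, 3 among the 712 in own-strand introns and 1 among the 230 downstream of an own-strand gene. With p as the only limit, 15.1% of the first kind were higher at 24M, 6.04% of the second and 10.9% of the third. Spliced transcripts were higher in 35 of 219 cases (16%), single-exon transcripts over an opposite exon in 80 of 696 (11.5%), and single-exon transcripts over no opposite exon in 10 of 419 (2.39%). The last kind was also the lowest in level, and the part of level in these shares was not tested. For comparison, the shares higher were 4.12% of the assembled intronic class, 6.53% of the intergenic class and 8.07% of Ensembl antisense transcripts. No test between these classes was run.

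**Figure D3:**
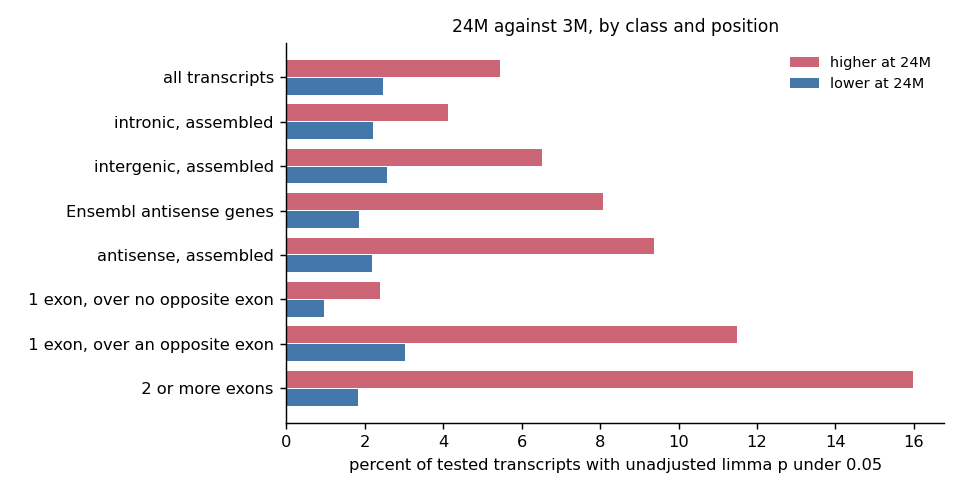
Percent of tested transcripts (x axis) with an unadjusted limma p under 0.05 at 24M against 3M, higher (red) or lower (blue), for all transcripts, 4 classes and 3 kinds of assembled antisense transcript. The bars for higher run from 2.39% over no opposite exon to 16% for spliced antisense transcripts, and the bars for lower antisense transcripts reach at most 3.02%.

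Of the 13, 9 did not overlap between the ages (0.146% of all transcripts were called higher without overlap), and 0 of the lower ones (0.0922%). The clearest separation was opposite Rcn1, a calcium-binding protein gene of the endoplasmic reticulum. MSTRG.20254.1 (chr2:105387879-105394824, plus strand) had 1.98 to 2.41 FPKM at 3M, 5.08 to 5.56 at 12M and 5.13 to 5.86 at 24M, a log2 change of 1.06 ± 0.09 (SE, limma adjusted p = 0.0173), while Rcn1 changed by 0.73 ± 0.21.

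MSTRG.6931.1, head to head with Kcnh4, was listed at 0.328, 0.231, 0, 0 and 0.384 FPKM at 3M, 0.823, 1.8, 1.36, 0 and 0 at 12M and 1.9, 1.95, 1.34, 1.81 and 1.35 at 24M. All 24M mice lay above all 3M mice, and the 12M mice covered both ranges. The log2 change was 1.17 ± 0.15 (SE, limma unadjusted p = 1.4e-05, adjusted p = 0.0604). Kcnh4 rose from 0.162 to 0.56 FPKM, a log2 change of 0.43 ± 0.06 (SE, limma adjusted p = 0.0266). The change of the antisense RNA was 0.75 above that of the gene. No p is given for this difference, because the transcript was named for its change. The same holds for the other differences given for called transcripts. All are on the log2(FPKM + 1) scale, which understates changes at low levels. Their sign need not show which RNA of a pair changed by the larger factor.

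MSTRG.36536.1 (chr8:115593217-115668864, minus strand, 75648 bases listed as 1 exon) ran across the 3′ end of the lncRNA gene 4930488N15Rik and over 1318 bases of its exons. It had 1.41, 0.478, 0.673, 0.518 and 0.458 FPKM at 3M, 2.48, 2.32, 2.23, 2.01 and 2.84 at 12M, and 3.05, 2.31, 3.21, 3.88 and 2.83 at 24M. The 3M mice lay below all others, and 12M and 24M overlapped. Its log2 change to 24M was 1.26 ± 0.17 (SE, limma unadjusted p = 2.76e-05, adjusted p = 0.0802), and that of 4930488N15Rik was 0.93 ± 0.12 (SE, limma adjusted p = 0.0222). The difference of the pair was 0.33 on the log2(FPKM + 1) scale. The means at 3M and 24M were 0.708 and 3.06 FPKM for the antisense RNA and 0.242 and 1.37 FPKM for the gene. As the gene was the lower of the pair, the 0.33 does not show that the antisense RNA rose by the larger factor.

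MSTRG.25262.1, over Ttc39a, was listed at 0 in all 5 mice at 3M. At 12M it was at 1.04 and 1.47 FPKM in 2 mice and at 0 in 3, and at 24M it was at 1.13, 1.36, 0.618, 1.87 and 0.912. The limma unadjusted p was 5.09e-05 and the adjusted p 0.111. Ttc39a had 0.374 to 0.771 FPKM at 3M and 0.781 to 1.39 at 24M, ranges that did not overlap, with a log2 change of 0.45 ± 0.13 (SE, limma unadjusted p = 0.00574, adjusted p = 0.156). MSTRG.27030.1, inside Gm43660, had 0.779 FPKM in 1 mouse and 0 in 4 at 3M, 1.89 and 1.7 in 2 mice and 0 in 3 at 12M, and 1.52, 1.48, 1.42, 1.59 and 1.25 at 24M. So the 24M mice were all listed and close together. Its log2 change was 1.13 ± 0.18 (SE, limma unadjusted p = 0.000109, adjusted p = 0.131), and that of Gm43660 was 0.48 ± 0.11 (limma adjusted p = 0.0872). The differences of these pairs were 0.64 and 0.65.

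MSTRG.30686.1, inside Alms1-ps2, had the largest log2 change of the 9. It was at 1.65, 0.121, 1.29, 1.34 and 1.23 FPKM at 3M, 0, 3.09, 2.61, 1.83 and 1.92 at 12M and 6.61, 4.06, 5.79, 7.67 and 2.33 at 24M. The 24M mice lay above the 3M mice, and the lowest of them below 2 of the 12M mice. The log2 change was 1.55 ± 0.31 (SE, limma unadjusted p = 0.000573, adjusted p = 0.221). Alms1-ps2 went from 1.31 ± 0.39 to 2.86 ± 0.65 and 4.54 ± 1.23 FPKM (SD, n = 5), a log2 change to 24M of 1.24 ± 0.20 (SE, limma adjusted p = 0.0367). The pair differed by 0.30.

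MSTRG.32300.1, inside Gm8902, was at 0.548, 0.622, 0, 1.66 and 1.17 FPKM at 3M, 2.6, 2.24, 1.81, 1.24 and 2.35 at 12M, and 2.76, 2.64, 3.01, 2.95 and 2.54 at 24M. The 24M mice lay in a narrow range above all 3M mice. The log2 change was 1.15 ± 0.24 (SE, limma unadjusted p = 0.000702, adjusted p = 0.229), against 0.57 ± 0.19 for Gm8902 (limma adjusted p = 0.225). MSTRG.30040.26 (chr6:48867051-48903092, minus strand, 2 exons) ran across the 5′ end of Aoc1, the gene of diamine oxidase, which breaks down histamine. It was at 4.12, 1.1, 2.51, 0.934 and 1.61 FPKM at 3M, 3.76, 4.53, 4.11, 3.45 and 5.2 at 12M and 6.23, 4.41, 5.44, 5.01 and 4.46 at 24M. Its highest 3M mouse lay just below its lowest 24M mouse. The log2 change was 1.09 ± 0.26 (SE, limma unadjusted p = 0.00179, adjusted p = 0.294), while Aoc1 changed by -0.09 ± 0.12, and the pair differed by 1.17. Without 3M mouse 6 or 3M mouse 8 the log2 change was 0.98 or 0.95, below the fold limit.

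The ninth, MSTRG.22793.1 (chr3:93278877-93279525, minus strand, 2 exons, 305 bases), fell outside the limit of 8 names and was added after its values were seen. It lies inside Flg, the gene of the skin protein filaggrin, and its span holds 145 bases of coding sequence. It had 0.0617, 0, 0.431, 0.0984 and 0.27 FPKM at 3M, 1.07, 2.42, 2.4, 0.881 and 0.78 at 12M and 0.576, 1.05, 0.767, 2.88 and 2.13 at 24M, so both older ages lay above 3M. Flg itself changed by 1.31 ± 0.20 on the log2 scale (SE, limma adjusted p = 0.0289). The 1 lower call, MSTRG.5294.1 (chr11:22844499-22859490, minus strand), was opposite the 5′ end of the lncRNA gene 9130230N09Rik and in an intron of B3gnt2. It was at 3.22, 2.19, 4.01, 0 and 3.06 FPKM at 3M and at 0.033, 0, 0, 0 and 0 at 24M, so that a single 3M mouse made the ages overlap (log2 change -1.61, limma unadjusted p = 0.00212, adjusted p = 0.312).

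**Figure D4:**
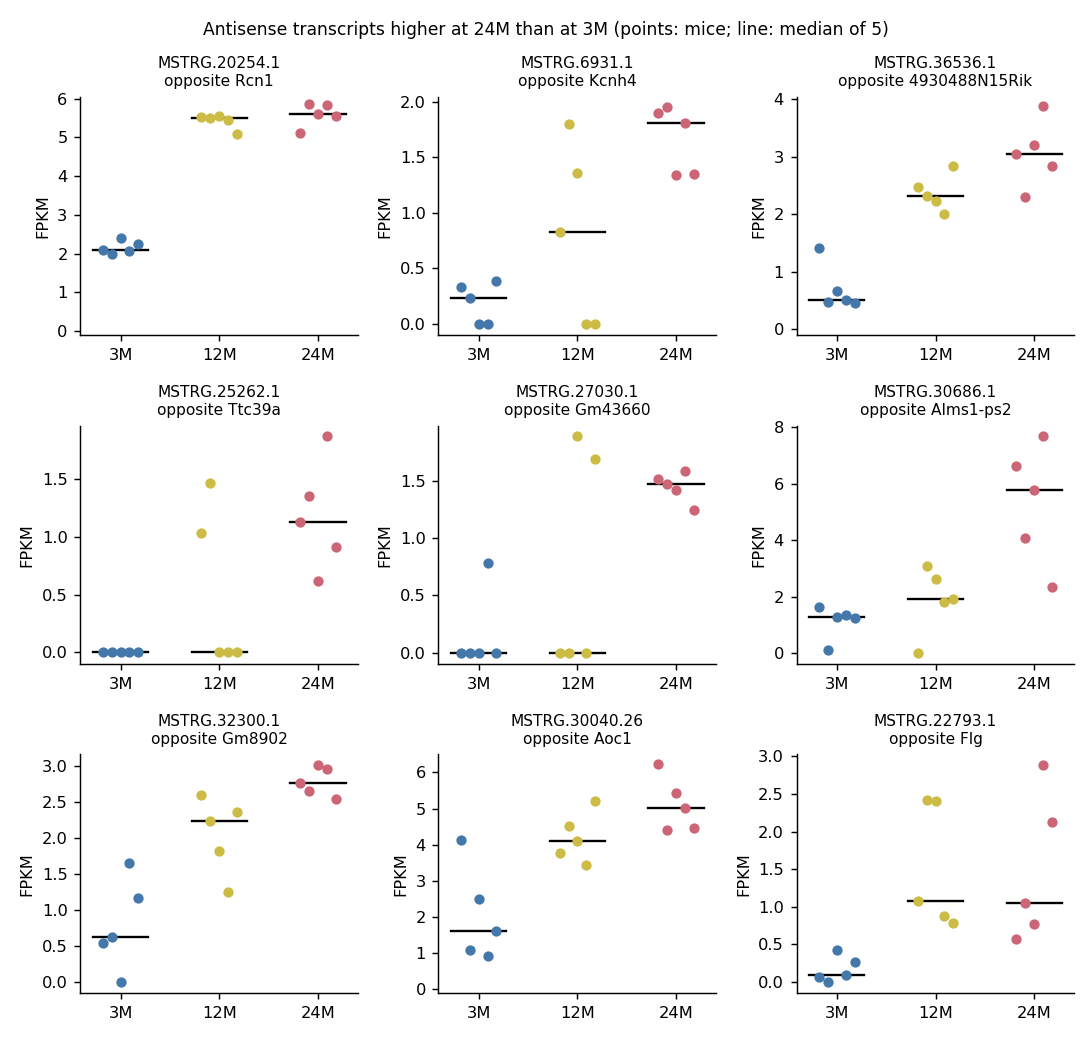
FPKM (y axis, linear, 1 scale per panel) of the 9 antisense transcripts called higher at 24M than at 3M without overlap, by age (x axis), 1 point per mouse and a line at the median of 5. In each panel every 24M point lies above every 3M point, and MSTRG.25262.1 is at 0 in all 3M mice.

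The opposite genes of the called transcripts were often higher as well. Of the 12 called higher whose gene has listed Ensembl transcripts, 9 had a gene with an unadjusted limma p under 0.05 and a higher level at 24M, and 0 a lower one. Of the 121 such pairs with the antisense RNA higher at p under 0.05, the gene was higher in 44 (36.4%) and lower in 0. Counted per gene, 38 of 113 were higher (33.6%). Over all 1267 tested pairs, the gene was higher in 19.9% and lower in 2.21%. Counted per gene, 19.4% of the 814 opposite genes were higher and 2.58% lower, beside 10.4% and 3.08% of all genes, a difference that was not tested. Of the 27 pairs in which the antisense RNA was lower at p under 0.05, the gene was higher in 4 and lower in 4. These were 4 and 3 different genes.

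Between 3M and 12M, 5 antisense transcripts of 1345 were called higher and 3 lower, where 0.466% of all transcripts were called higher and 0.317% lower. These comparisons share the 3M mice with the one above. Without overlap between ages there were 4 higher and 0 lower (0.12% and 0.0737% of all). They were MSTRG.20254.1, MSTRG.36536.1 and MSTRG.22793.1, described above, and MSTRG.1151.1 (chr1:85208651-85209173, plus strand), which is named for C130026I21Rik but lies over none of its exons and in an intron of Gm7609. That transcript was at 0, 0.146, 0.369, 0.0287 and 0 FPKM at 3M, 1.48, 2.21, 1.94, 1.06 and 0.82 at 12M, and 0, 1.91, 2.11, 1.72 and 3.81 at 24M. It separated 3M from 12M but not from 24M, where 1 mouse was at 0. C130026I21Rik rose by 0.84 ± 0.14 from 3M to 12M (SE, limma adjusted p = 0.0694).

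Between 12M and 24M, 8 of 1315 were called higher and 1 lower, where 0.186% of all transcripts were called higher and 0.216% lower. Without overlap 1 was higher and 0 lower (0.0303% and 0.0351% of all), and no adjusted p was under 0.05. It was MSTRG.37042.1 (chr8:123284905-123285565, minus strand), named for the very long gene Gm20388 but lying over none of its exons and in an intron of Fanca, a DNA repair gene of its own strand. It was listed at 0, 2.98, 0, 0 and 1.21 FPKM at 3M, 0, 1.5, 1.34, 0.744 and 0 at 12M and 2.67, 1.69, 2.24, 2.4 and 3.51 at 24M. The highest 3M mouse lay within the 24M range. Of the others, MSTRG.10686.1 opposite Oit1 was listed at 0 in all 12M mice, at 0.3 to 0.754 FPKM at 3M, and at 0 in 1 and 1.47 to 1.87 in 4 of the 24M mice. MSTRG.21097.1 (chr2:150578817-150581162, minus strand), downstream of Apmap of its own strand, covers 128 bases of the 3′ UTR of Cst7, an inhibitor of lysosomal cysteine proteases. It was listed at 1.33 FPKM in 1 mouse and at 0 in 4 at 3M, and at 1.34, 0.939, 0, 1.36 and 0.762 at 24M, with overlap (24M against 3M, limma unadjusted p = 0.0863, adjusted p = 0.708). At 12M it was listed at 0.554 and 0.526 in 2 mice and at 0 in 3, and 24M was higher than 12M by 0.60 (limma unadjusted p = 0.048, adjusted p = 0.838), below the fold limit.

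The total level of antisense RNA was described without a test, since it is a score over the members. Its share of the summed FPKM was 0.424, 0.443, 0.442, 0.512 and 0.414% in the 3M mice, 0.403, 0.488, 0.466, 0.499 and 0.452% in the 12M mice and 0.489, 0.474, 0.603, 0.526 and 0.577% in the 24M mice. The 3M and 24M ranges overlapped through 3M mouse 8. Counted as read bases, which weights long transcripts more, the share was 0.83 to 0.939% at 3M, 0.899 to 1.03% at 12M and 1.01 to 1.1% at 24M, and 3M and 24M did not overlap. The number of antisense transcripts above 0 went the other way, with 743 to 824 at 3M, 679 to 799 at 12M and 683 to 781 at 24M.

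**Figure D5:**
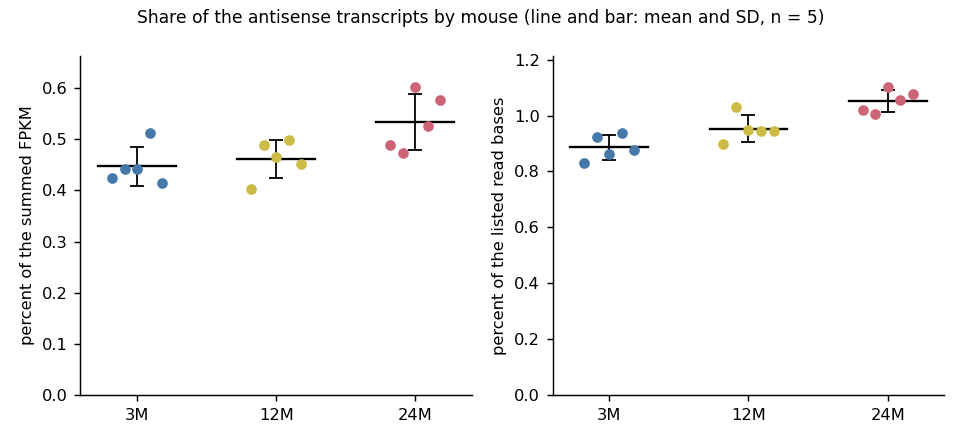
Share of the assembled antisense transcripts in each mouse by age (x axis), as percent of the summed FPKM (left) and of the listed read bases (right), both from 0, with the mean and SD of 5 mice. On the right all 24M mice, at 1.01% or more, lie above all 3M mice, at up to 0.939%.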

How the data were processed

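RNA of kidney pieces from 15 mice was sequenced. Per the labels, ribosomal RNA was depleted and a stranded total RNA kit was used, while the methods describe oligo(dT) selection. The authors mapped reads to GRCm38, assembled transcripts with StringTie, merged them with scripts and estimated levels with StringTie (the submitters' processing notes also name TopHat2, the methods Bowtie2 and HISAT2), and deposited FPKM and mean read coverage (signal) per transcript. The files hold no counts, so no count model was run.

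Ages were compared in pairs with limma 3.58.1 (R 4.3.3) on log2(FPKM + 1), with a trend, over all transcripts above 0 in at least 1 mouse compared, adjusting by Benjamini-Hochberg. Calls needed unadjusted p under 0.05 and a log2 change over 1. The opposite gene was the sum of its Ensembl transcripts, without assembled isoforms. Differences between antisense and gene changes used an exact 2-sided permutation test, with p given only for pairs not named for their change. Correlations used 100000 permutations. The fits were tested on simulated data. Positions came from GENCODE M21. With n = 5 and no counts, no counting interval was given.

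Transcripts were named if called without overlap (at most 8 a direction for 24M against 3M, 3 for the other comparisons), if among the 6 most abundant or the 4 most abundant with 3 or more exons, if in the study's network, or if the most abundant for a list of opposite genes. Members and lists were chosen with earlier results of these data known. Alternatives were another pseudocount, a filter, TPM, a joint fit, a robust prior, an F test with a library covariate, adjusted p and leaving out each mouse. Circular RNAs were not used here, and results for some genes are not reported here.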

Additional observations from a re-analysis of the deposited data

Results flagged for a closer look

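In 8 of 84 groups of 5 mice, 1 mouse stood apart from the other 4, with a gap over the group's range above 0.71. For normally distributed values about 1 group in 20 passes this limit. Groups with mice at 0 are not so distributed, so the 8 of 84 cannot be set against that rate. MSTRG.20254.1 (Rcn1) was lowest in 12M mouse 21, at 5.08 FPKM against 5.46 to 5.56 in the others. MSTRG.36536.1 (4930488N15Rik) was highest in 3M mouse 5, at 1.41 against 0.458 to 0.673 FPKM. MSTRG.27030.1 (Gm43660) was at 0.779 FPKM in 3M mouse 8 and listed at 0 in the others. MSTRG.30686.1 (Alms1-ps2) was lowest in 3M mouse 6, at 0.121 against 1.23 to 1.65 FPKM. MSTRG.27885.7 (Gc) was listed at 0 in 24M mouse 35 and at 4.99 to 5.34 FPKM in the others. MSTRG.21097.1 (Cst7) was at 1.33 FPKM in 3M mouse 9 and at 0 in the others. MSTRG.37344.1 (Kcnj1) was lowest in 12M mouse 17, at 0.674 against 1.62 to 1.85 FPKM. MSTRG.37619.1 (Bace1) was at 1.47 FPKM in 24M mouse 33 and at 0 in the others.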

How the results depend on the processing

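No paired analysis was possible because the ages share no replicate numbers. For 24M against 3M, the 13 higher and 1 lower became 78 and 37 with a pseudocount of 0.1, 69 and 28 with TPM, 20 and 13 with an F test and library covariate, and 1 and 0 with an adjusted p. Under the first 3 the lower share was 2.77, 2.1 and 0.975%, against 1.72, 1.23 and 0.556% of all transcripts, above it where the main share was below. The lower count was 2 with a filter of 1 FPKM and 2 with all mice in 1 fit. For 12M against 3M, the 5 higher and 3 lower became 55 and 44 with a pseudocount of 0.1, 44 and 37 with TPM and 1 and 0 with an adjusted p, and the F test with covariate gave 9 higher. For 24M against 12M, the 8 higher and 1 lower became 41 and 18, 43 and 15, 5 and 2 with the F test, and 0 and 0 with an adjusted p, with 2 lower under the filter and 0 lower with all mice in 1 fit. A lower pseudocount and TPM let transcripts of lower level pass the fold limit. The other causes were not tested.

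Leaving out each mouse gave 11 to 21 higher and 1 to 6 lower for 24M against 3M, with 21 and 6 without 24M mouse 32 and 20 and 6 without 3M mouse 5, and the lower count also passed 1.5 times its value without 24M mice 31, 34 or 35 (2, 2 and 3) and 3M mice 6, 7 or 9 (5, 4 and 2). It gave 4 to 9 higher and 1 to 6 lower for 12M against 3M, with 9 higher without 3M mouse 5, 6 lower without 3M mouse 9, 5 without 3M mouse 6 and 1 without 3M mouse 7. For 24M against 12M it gave 6 to 11 and 0 to 5, with 5, 4 and 3 lower without 12M mice 19, 17 and 18 and 0 without 12M mouse 20, 24M mouse 32 or 24M mouse 34.

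Of 128 refits of the 8 called transcripts, 122 kept the call. MSTRG.25262.1 was at 0.99 without 24M mouse 34, MSTRG.32300.1 at 0.95 without 3M mouse 7 and 0.96 with the F test and covariate, MSTRG.27030.1 at 0.94 with the same, and MSTRG.30040.26 at 0.98 and 0.95 without 3M mice 6 and 8. The sign turned for 3 of the most abundant, none of them called: MSTRG.8209.1 (-0.13 with the F test and -0.000117 to 0.28 without each mouse, lowest without 3M mouse 5), MSTRG.30186.1 (-0.055 to 0.31, lowest without 3M mouse 6) and MSTRG.6556.1 (-0.40 to 0.51, highest without 24M mouse 32). The antisense share was 0.491% at 3M, 0.511% at 12M and 0.582% at 24M without the 10 most abundant transcripts in the total, and 0.393%, 0.416% and 0.482% without the 10 most abundant antisense transcripts. Leaving out each mouse, it was 0.431 to 0.455% at 3M, 0.452 to 0.476% at 12M and 0.517 to 0.549% at 24M. The median ratio was 0.669 against the highest single Ensembl transcript. An exact permutation test was computed for the difference between antisense and gene in 24 named pairs. After adjustment 4 passed, all named for the antisense change. That naming favoured a small p, so no conclusion is drawn from them. With a pseudocount of 0.1, chosen after seeing the data, 0 passed. The files give no counts, so the precision of values near 0 is unknown.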
